A study of Mus musculus with 18 samples.

Results

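The type I interferon response genes followed here are the 10 genes Ifit1, Ifit3, Isg15, Usp18, Irf7, Rsad2, Oasl2, Rtp4, Isg20 and Bst2. They were chosen by name from the deposited count matrix, 10 of 33006 genes, of which 17739 had at least 1 unique molecular identifier (UMI, the tag that marks 1 captured RNA molecule). All 10 were found and all 10 had UMIs. Splenic TCRβ+CD4+ T cells of male mice were profiled by droplet single-cell RNA sequencing in 18 samples of 8 groups, 4 samples with the V2 kit and 14 with the V3 kit of the same maker. The design asks how CD4 T cells change when the Foxp3 gene is disabled, in the whole animal and in single cells that share an animal with wild-type (WT) cells. The ∆Foxp3 cells come from B6 Foxp3DeltaEGFPiCre x ROSA-YFP mice, in which the Foxp3 locus makes no working Foxp3 protein and expresses a fluorescent protein and Cre instead.

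The V2 groups were ∆Foxp3 mice of 3 weeks (n = 2, replicates A and B) and WT B6 Foxp3-IRES-GFP mice of 3 weeks (n = 2). The V3 intact groups were ∆Foxp3 mice of 3 weeks (n = 2) and WT mice of 9 weeks from Foxp3-IRES-GFP and CD45.1 parents on B6 (n = 2), so that genotype and age cannot be told apart between them. The mixed bone marrow chimeras gave ∆Foxp3 cells (the same ∆Foxp3 strain crossed to CD45.1/2, n = 3) and WT cells (Foxp3-IRES-GFP crossed to CD45.1, n = 3). Their CD45.2 recipients were irradiated with 1000 rad at 7 weeks and given CD3-depleted marrow, 50% of either genotype; spleens were taken after 10 weeks, and the samples are labelled 16 weeks old. The last groups were sorted GFP+ Treg (n = 2) and sorted GFP- conventional T cells (Tconv, n = 2) of WT mice of 9 weeks. In the chimeras the same hashtag and replicate number mark the same mouse for both genotypes. Each of the other V3 groups carries 1 hashtag read in 2 tubes, so its 2 samples may be 1 mouse and their spread may be technical. The V3 comparisons between groups come from 1 fit, whose estimate of spread is shared by all V3 groups, the chimeras included. Their p-values may thus not measure the spread between mice of the intact and sorted groups.

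Type I interferons bind the receptor IFNAR1/IFNAR2 on nearly every cell, and the kinases JAK1 and TYK2 then activate transcription factors in the cytoplasm. The activated complex enters the nucleus and binds interferon-stimulated response elements (ISRE) in promoters and turns on genes that block viral entry, replication and release. Type II interferon (IFN-γ) signals mainly through GAS elements, and it induces an overlapping set with guanylate-binding proteins and immunity-related GTPases at its centre. In resting CD4 T cells a low interferon tone keeps these genes measurable without infection.

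The promoters of the members are shown because the ISRE is the element they are known to share. RefSeq promoters of build GRCm38.p6 were found for 8 of the 10 members; Usp18 and Rtp4 had no entry. The ISRE half-site pair GAAANNGAAA was searched on both strands in the 250 bases before each start, and 5 of the 8 members held it, against 978 of 32851 promoters (2.98%) in the whole table. Each run covers the stretch between 170 and 11 bases before the start, 5′ to 3′ on the gene's own strand, with the half-site pair in capitals, except in Isg20, where the capitals mark the GAS palindrome TTCNNNGAA.
Ifit1: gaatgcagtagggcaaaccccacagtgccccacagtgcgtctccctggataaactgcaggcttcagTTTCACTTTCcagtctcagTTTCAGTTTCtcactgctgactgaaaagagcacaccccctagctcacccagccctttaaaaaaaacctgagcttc
Ifit3: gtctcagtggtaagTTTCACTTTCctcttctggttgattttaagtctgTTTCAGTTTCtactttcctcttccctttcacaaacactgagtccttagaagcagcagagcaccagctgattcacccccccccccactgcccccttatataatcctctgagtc
Isg15: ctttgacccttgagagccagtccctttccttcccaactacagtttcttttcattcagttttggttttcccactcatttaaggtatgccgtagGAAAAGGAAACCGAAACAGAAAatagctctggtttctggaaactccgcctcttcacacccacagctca
Rsad2: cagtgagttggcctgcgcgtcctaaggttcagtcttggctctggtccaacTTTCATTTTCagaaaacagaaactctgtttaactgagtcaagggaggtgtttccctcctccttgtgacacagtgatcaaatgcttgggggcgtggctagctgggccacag
Bst2: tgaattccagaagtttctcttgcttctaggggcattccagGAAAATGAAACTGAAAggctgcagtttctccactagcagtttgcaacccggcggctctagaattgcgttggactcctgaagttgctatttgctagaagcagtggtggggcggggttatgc
Isg20: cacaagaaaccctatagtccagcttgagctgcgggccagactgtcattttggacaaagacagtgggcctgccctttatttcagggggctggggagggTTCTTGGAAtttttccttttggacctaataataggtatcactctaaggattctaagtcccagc

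The runs lie at chr19:34640719-34640878 (plus strand) for Ifit1, chr19:34583359-34583518 (plus) for Ifit3 and chr4:156200829-156200988 (minus) for Isg15. Those of Rsad2, Bst2 and Isg20 lie at chr12:26456463-26456622 (minus), chr8:71537483-71537642 (minus) and chr7:78913254-78913413 (plus). Ifit1 and Ifit3, neighbours on chromosome 19, each held 2 separate pairs with the same 10 letters. Isg15 held 3 overlapping pairs, Bst2 held 2 overlapping pairs and Rsad2 held 1. Isg20 held no half-site pair in this window and 1 GAS palindrome; Bst2 also held a GAS palindrome, overlapping its first half-site pair, against 7.02% of all promoters. Irf7 and Oasl2 held neither motif in these 250 bases.

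In mm10 coordinates the gene of Ifit1 spans chr19:34640871-34650009 and that of Ifit3 chr19:34583531-34588731, both on the plus strand. Isg15 spans chr4:156199424-156200818 (minus), Rsad2 chr12:26442746-26456452 (minus), Oasl2 chr5:114896936-114912234 (plus), Isg20 chr7:78913424-78920396 (plus) and Bst2 chr8:71534255-71537456 (minus). Usp18 (chr6:121245906-121270917, plus) overlaps Gm44148 and Irf7 (chr7:141262706-141266481, minus) overlaps Phrf1, each on the other strand. Rtp4 (chr16:23520291-23614222, plus) overlaps Masp1 on the other strand and Gm45338 on its own strand. The sources used here do not say whether counting used strand. If it did not, UMIs of these 3 genes and their overlapping partners cannot be told apart. Strand would not separate Rtp4 from Gm45338. UMIs of Ifit3 may be shared with a near-identical copy.

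The samples held 148 to 5271 cells and 955097 to 14887898 UMIs each, with a median of 2774 to 3143 UMIs per cell in V2 and 4731 to 8856.5 in V3. Of 26652 cells, 198 carried 1 of 99 barcodes found in 2 samples, none within a V3 tube. All 8 T cell markers checked had UMIs in every sample. The deposited Foxp3 row adds the reporter or Cre reads to Foxp3, so it checks nothing about the genotype labels. The V2 ∆Foxp3 replicate B stood apart in free RNA: the erythroid gene Hbb-bs had a UMI in 8.27 and 38.5% of cells thinned to 1500 UMIs in V2 ∆Foxp3 samples (unthinned 15.1 and 60.2%) and in 12.6 and 7.53% in V2 WT samples (unthinned 21.1 and 13.7%). In V3 samples the thinned share was at most 1.40%. Of the reads of the V2 ∆Foxp3 libraries a fraction of 0.597 and 0.534 lay in cells by the authors' count, against 0.791 and 0.795 in V2 WT libraries.

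In the V2 experiment most members were higher in ∆Foxp3 T cells. Of the 10 members, 7 rose and none fell (edgeR quasi-likelihood test on UMI sums per sample, Benjamini-Hochberg adjusted p under 0.05), where 14.4% of the 10675 genes tested rose and 9.61% fell. The members' median log2 fold change was 0.85, and that of all genes tested was within 0.02 of 0. Levels are given in CPM, a gene's UMIs scaled by all UMIs of the sample. In bulk sums of this kind, fewer cells that express a gene and less RNA per cell cannot be told apart.

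Ifit1, whose protein binds viral RNA, had 105 and 81.3 CPM in V2 ∆Foxp3 samples, against 56.4 and 56.9 CPM in V2 WT samples. Ifit3, its neighbour on chromosome 19, had 70.8 and 49.4 CPM in ∆Foxp3, against 25.7 and 23.7 CPM in WT. Both genes were higher in each ∆Foxp3 sample than in either WT sample, with log2 fold changes of 0.68 ± 0.13 (SE, adjusted p = 0.0156, edgeR) and 1.26 ± 0.17 (adjusted p = 0.0058). Isg15, a ubiquitin-like modifier that is joined to other proteins, had 201 and 130 CPM in ∆Foxp3, against 85.4 and 73.1 CPM in WT. Usp18, the protease that removes ISG15 and also restrains signalling at IFNAR2, had 29.5 and 27.9 CPM in ∆Foxp3, against 24.2 and 25.9 CPM in WT. Isg15 thus did not overlap between genotypes and rose by 1.02 ± 0.20 (adjusted p = 0.0165), while Usp18, with a small gap between the genotypes, did not pass the test (0.15, adjusted p = 0.344).

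Irf7, the transcription factor that amplifies interferon production, had 111 and 104 CPM in V2 ∆Foxp3 samples, against 63.6 and 61.1 CPM in WT samples (log2 fold change 0.74 ± 0.08, adjusted p = 0.00306, edgeR). Rtp4, a receptor transporter protein induced by interferon, had 148 and 135 CPM in ∆Foxp3, against 72.7 and 66.5 CPM in WT (0.97 ± 0.09, adjusted p = 0.00189). Neither gene overlapped between the genotypes. Oasl2, a relative of the 2′-5′ oligoadenylate synthetases, had 22.6 and 17.6 CPM in ∆Foxp3, against 6.18 and 6.68 CPM in WT (1.63 ± 0.18, adjusted p = 0.00302). Isg20, an exonuclease that degrades RNA, had 65.6 and 59.8 CPM in ∆Foxp3, against 22.8 and 23.5 CPM in WT (1.39 ± 0.10, adjusted p = 0.000897). These were the largest folds among the 10 members. Bst2 (tetherin), which holds budding virions at the cell surface, had 167 and 142 CPM in ∆Foxp3, against 142 and 128 CPM in WT. Rsad2 (viperin), an enzyme that makes a chain-terminating nucleotide, had 4.03 and 3.05 CPM in ∆Foxp3, against 4.23 and 4.57 CPM in WT. Neither Bst2 (0.15, adjusted p = 0.358) nor Rsad2 (-0.31, adjusted p = 0.413) passed the test. Leaving out WT replicate B reduced the 7 calls to 4, those of Ifit3, Oasl2, Rtp4 and Isg20.

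**Figure D1:**
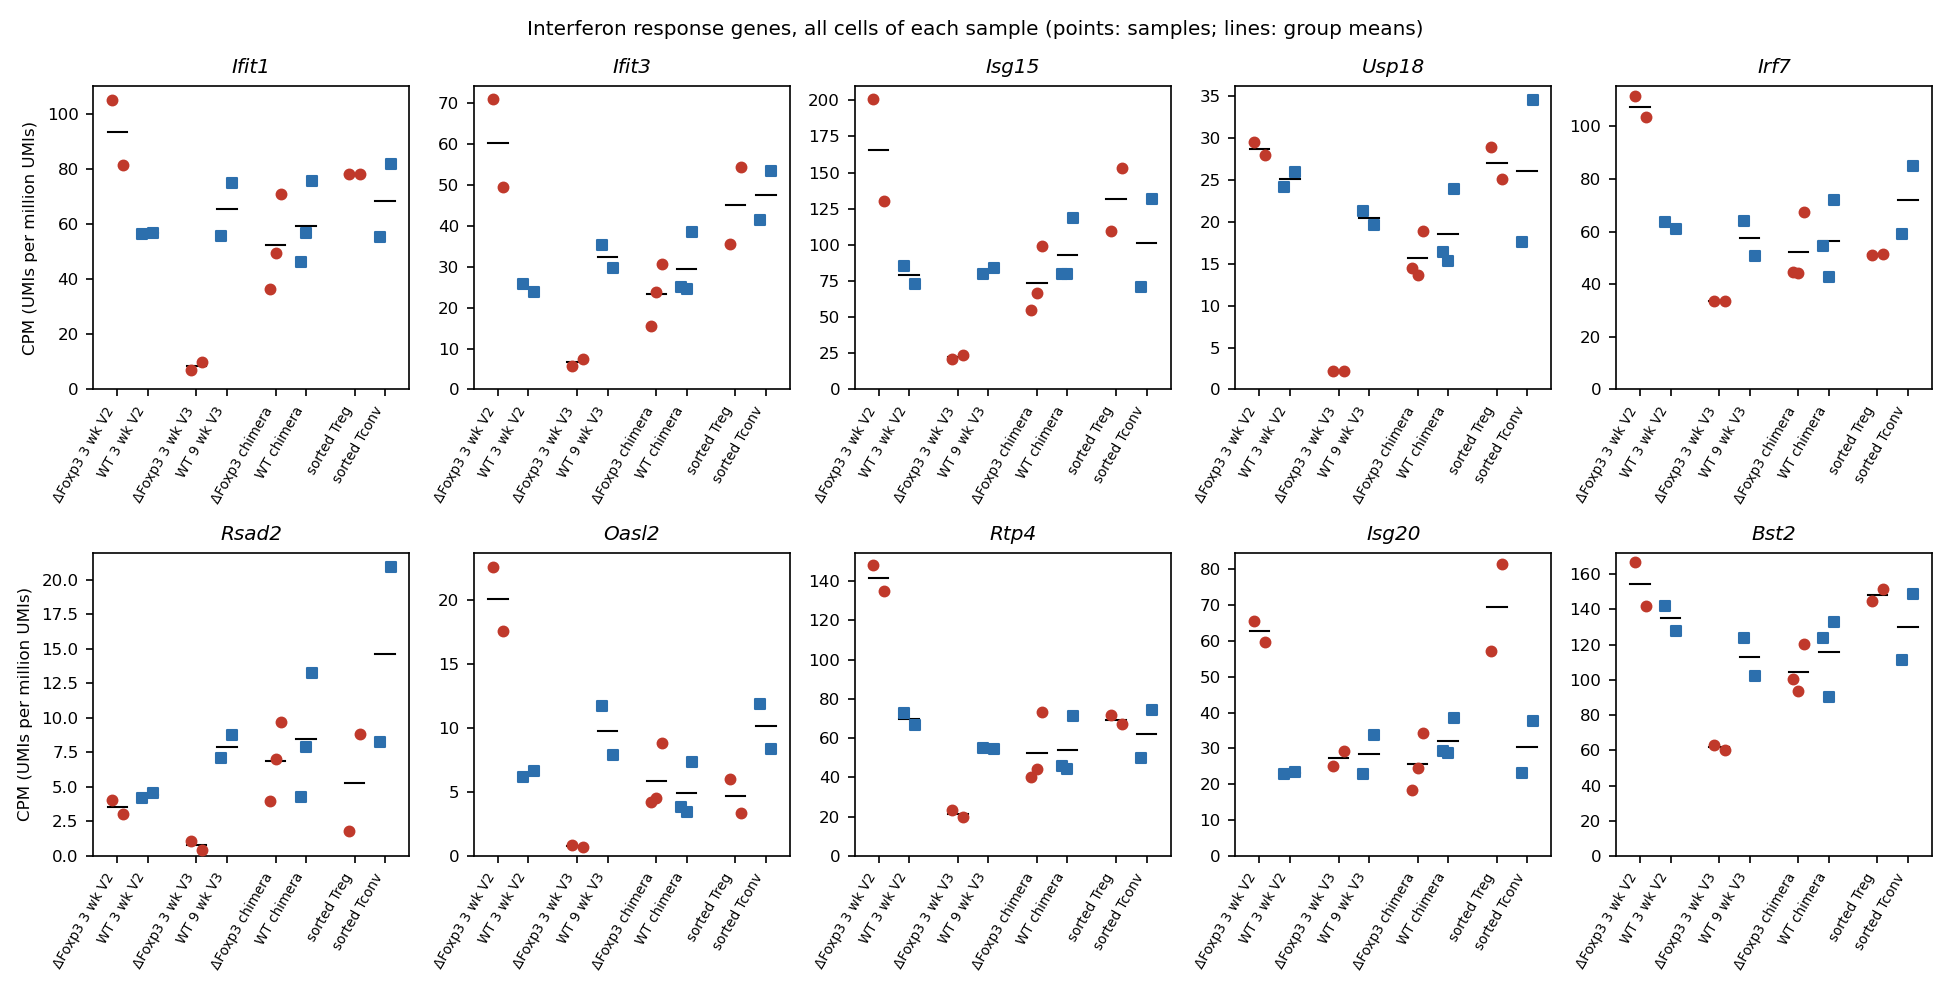
The 10 panels give each gene's level in CPM (y axis, linear, from 0) in the 8 groups (x axis); points are samples, circles for ∆Foxp3 or Treg and squares for WT or Tconv, and lines are group means. Ifit1 in V3 shows the ∆Foxp3 samples at 7.09 and 9.85 CPM and the WT samples at 55.7 and 74.9 CPM, while in V2 the ∆Foxp3 samples lie above the WT samples.

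In the V3 experiment the same genotype, at the same age of 3 weeks, stood below WT samples of 9 weeks. Of the 10 members, 9 fell and none rose (edgeR), where 22.1% of the 10918 genes tested rose and 20.9% fell. The members' median log2 fold change was -2.30. DESeq2 also called 9 lower and none higher.

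Ifit1 had 7.09 and 9.85 CPM in V3 ∆Foxp3 samples, against 55.7 and 74.9 CPM in V3 WT samples, a log2 fold change of -3.11 ± 0.33 (SE, adjusted p = 3.68e-06, edgeR). Ifit3 had 5.84 and 7.42 CPM in ∆Foxp3, against 35.3 and 29.6 CPM in WT (-2.52 ± 0.34, adjusted p = 2.96e-05). Both IFIT genes were lower in each ∆Foxp3 sample than in either WT sample. Isg15 had 21.0 and 23.7 CPM in ∆Foxp3, against 80.0 and 84.1 CPM in WT (-2.09 ± 0.30, adjusted p = 5.54e-05). Usp18 had 2.22 and 2.22 CPM in ∆Foxp3, against 21.3 and 19.6 CPM in WT (-3.42 ± 0.33, adjusted p = 1.39e-06). The modifier and its protease were both lower without overlap. Rsad2 had 1.11 and 0.424 CPM in ∆Foxp3, against 7.10 and 8.74 CPM in WT, from 12 and 52 UMIs in all. Oasl2 had 0.834 and 0.742 CPM in ∆Foxp3, against 11.7 and 7.91 CPM in WT, from 13 and 70 UMIs. Both fell, by 3.60 ± 0.76 for Rsad2 (adjusted p = 0.0014) and by 3.87 ± 0.55 for Oasl2 (adjusted p = 4.91e-05), on few UMIs.

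Irf7, Rtp4 and Bst2 fell with smaller fold changes. Irf7 had 33.8 and 33.7 CPM in V3 ∆Foxp3 samples, against 64.2 and 50.8 CPM in WT samples (-1.02 ± 0.25, adjusted p = 0.00363, edgeR). Rtp4 had 23.4 and 19.8 CPM in ∆Foxp3, against 55.2 and 54.5 CPM in WT (-1.58 ± 0.30, adjusted p = 0.000596). Bst2 had 63.0 and 60.3 CPM in ∆Foxp3, against 124 and 102 CPM in WT (-1.11 ± 0.17, adjusted p = 0.000114). None of these overlapped between the groups. Isg20 had 25.2 and 29.3 CPM in ∆Foxp3, against 22.9 and 33.7 CPM in WT. Its groups overlapped, and it was the only member that did not pass the test here (-0.22 ± 0.28, adjusted p = 0.553). The scaling factors of the fit differed by 0.22 on the log2 scale between these groups (0.06 in V2), so that fold changes differ from CPM ratios by that amount.

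Several other measures moved with the V3 difference, and their part in it was not tested. The mean percent of mitochondrial UMIs per cell was 5.17 and 5.05 in V3 ∆Foxp3 samples and 7.26 and 7.27 in V3 WT samples. Activated Tconv made up 46.0 and 47.4% of the cells of V3 ∆Foxp3 samples, against 14.6 and 19.9% in V3 WT samples. Of the CD8 T and NK cell markers each sample had UMIs of 5 of 6, though not the same 5, and their summed level was 899 to 906 CPM in ∆Foxp3 and 118 to 129 CPM in WT; Cd8a had 52 and 126 UMIs in ∆Foxp3 and 4 and 0 UMIs in WT, and Ncr1 had at most 2. Plasmacytoid dendritic cell markers, 4 of 6 with UMIs in ∆Foxp3 and 3 of 6 in WT, summed to 93.6 to 95.7 CPM in ∆Foxp3 and 11.7 to 14.2 CPM in WT, while Siglech, which defines those cells, was at 0 in all 4 samples. Myeloid markers, 10 of 10 with UMIs in ∆Foxp3 and 7 to 9 of 10 in WT, summed to 203 to 220 CPM in ∆Foxp3 and 85.7 to 106 CPM in WT. B cell markers, 8 of 8 with UMIs in ∆Foxp3 and 7 or 8 of 8 in WT, summed to 109 to 115 CPM in ∆Foxp3 and 213 to 250.2 CPM in WT. Treg markers, 6 of 6 with UMIs, summed to 682 to 696 CPM in ∆Foxp3 and 181 to 369 CPM in WT. In V2 the CD8 T and NK cell markers, 5 or 6 of 6 with UMIs, were also higher, at 623 to 1251 CPM in ∆Foxp3 and 168 to 214 CPM in WT. A filter left out every cell with an NKT annotation or 2 or more unthinned UMIs of marker genes of cells other than CD4 T cells. Its list holds Nkg7, a cytotoxic granule gene, and erythroid genes, but no Treg markers. It drops 85.2 and 88.6% of V3 ∆Foxp3 cells and 51.2 and 65.3% of V3 WT cells, and it does not adjust for depth. With this filter only Oasl2 (-2.67, adjusted p = 0.0436) and Bst2 (-0.70, adjusted p = 0.0199) still passed the edgeR test. The values of the other members were between -2.75 (Rsad2) and 0.39 (Isg20). With cells left out only for the most specific marker genes or an NKT annotation, 4.55 to 13.7% of cells, all 9 members were still called lower.

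The same result could be read from shares of cells. At 1500 UMIs per cell, 59.3% ± 4.86 of the V2 ∆Foxp3 cells held a UMI of at least 1 member (SD, n = 2; 77.1% ± 6.16 unthinned), against 39.4% ± 0.393 of the V2 WT cells (57.3% ± 1.02 unthinned). In V3 that share was 21.4% ± 0.663 in ∆Foxp3 (69.7% ± 6.08 unthinned), against 38.0% ± 0.760 in WT (74.0% ± 0.972 unthinned). The genotypes were thus farther apart at equal depth than before thinning in V3, where the ∆Foxp3 cells were deeper. For a single gene, Isg15, the thinned share was 21.8 and 15.3% in V2 ∆Foxp3 samples and 9.16 and 8.42% in V2 WT samples (unthinned 35.8 and 24.7%, and 14.5 and 14.1%). In V2 ∆Foxp3 replicate B and in V2 WT replicate A this was below the share with Hbb-bs, a gene of red cells that T cells lack, and in the other V2 samples it was above it. In V3 the thinned Isg15 share was 3.10 and 2.88% in ∆Foxp3 and 8.48 and 9.09% in WT (unthinned 12.0 and 16.1%, and 21.6 and 24.7%), above that of Hbb-bs in each sample.

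Mixed chimeras put both genotypes in 1 animal. No member passed the test between chimera ∆Foxp3 and chimera WT cells (edgeR; 0 of 10 also at an unadjusted p under 0.05 and 0 by DESeq2), where 0.211% of genes rose and 0.247% fell. The fold changes ran from -0.19 (Isg15) to 0.45 (Oasl2), with adjusted p from 0.764 to 1 and standard errors from 0.13 (Bst2) to 0.39 (Rsad2). Ifit1 had 36.6, 49.5 and 70.8 CPM in ∆Foxp3 cells of mice 1, 2 and 3, against 46.2, 56.8 and 75.4 CPM in WT cells of the same mice. Isg15 had 54.7, 66.5 and 99.5 CPM in ∆Foxp3 cells, against 79.9, 80.1 and 119 CPM in WT cells. Usp18 had 14.5, 13.7 and 18.9 CPM in ∆Foxp3 cells, against 16.4, 15.3 and 23.9 CPM in WT cells. For these 3 genes the CPM of ∆Foxp3 cells was below that of WT cells within each mouse, by less than the range between mice. The fit's scaling factors differed by -0.13 (log2), which raises ∆Foxp3 relative to these CPM, and with it Ifit1 in mouse 3 and Usp18 in mouse 1 were no longer below WT. Mouse 3 had the highest level of every member in both genotypes. With the mouse as a block, again no member was called. The ∆Foxp3 and WT cells of each mouse were read in different tubes, so genotype and tube cannot be told apart within a mouse.

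Fitted values above 0 were those of Oasl2 (0.45), Rtp4 (0.12), Irf7 (0.05) and Bst2 (0.0089), none past the test. Oasl2 had 4.21, 4.50 and 8.85 CPM in chimera ∆Foxp3 cells and 3.83, 3.48 and 7.36 CPM in chimera WT cells. Rtp4 had 40.1, 44.4 and 73.4 CPM in ∆Foxp3 cells and 45.8, 44.5 and 71.4 CPM in WT cells. Bst2 had 100, 93.4 and 120 CPM in ∆Foxp3 cells and 124, 90.4 and 133 CPM in WT cells. The genotypes overlapped for all 10 members. The share of cells with a UMI of at least 1 member at 1500 UMIs was 33.4% ± 5.15 in ∆Foxp3 and 34.7% ± 3.84 in WT cells (SD, n = 3 each; 70.2% ± 4.26 and 69.2% ± 5.61 unthinned).

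The genotype difference itself was tested between intact mice and chimeras of the V3 experiment. The intact difference minus the chimera difference was below 0 for 9 of the 10 members (edgeR), where 18.7% of genes were above 0 and 18.1% below. It was -3.06 ± 0.39 for Ifit1 (adjusted p = 3.07e-05) and -1.12 ± 0.22 for Bst2 (adjusted p = 0.00086), with Isg20 at -0.04 ± 0.34 (adjusted p = 0.942). Without the cells that held 2 or more UMIs of other marker genes or an NKT annotation, 1 of the 9 calls was left. The comparison of chimera ∆Foxp3 with intact ∆Foxp3 cells, which shares samples with it, gave 9 members higher and none lower. Here 26.5% of genes rose and 27.5% fell. The called values ran from 0.90 for Irf7 to 3.45 for Rsad2, and 2 calls were left without the cells with other marker genes. Blocking by replicate number cannot serve for this comparison, since no block holds both chimera and intact samples. Chimera WT against intact WT cells gave no member past the test (1 at an unadjusted p under 0.05, 0 by DESeq2), where 0.0733% of genes rose and 0.11% fell; Oasl2, at -1.18 (adjusted p = 0.579), was the member farthest from 0. Age also differs between the intact groups and between intact and chimera samples, and that part cannot be told apart.

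Within the deposited class of resting Tconv, the cells that have not been activated, the members' median log2 fold change in V2 was 1.32, against 0.85 over all cells. Of the 10 members, 9 rose and none fell (edgeR), where 12% of genes rose and 7.63% fell. Ifit1 had 134 and 129 CPM in V2 ∆Foxp3 resting cells, against 56.9 and 56.8 CPM in V2 WT resting cells (1.20 ± 0.08, adjusted p = 5.99e-05). Isg15 had 229 and 169 CPM in ∆Foxp3, against 77.6 and 70.0 CPM in WT (1.44 ± 0.13, adjusted p = 0.000423). Oasl2 had 29.6 and 30.7 CPM in ∆Foxp3, against 6.74 and 6.78 CPM in WT (2.14 ± 0.13, adjusted p = 5.9e-05). Usp18 (0.67 ± 0.12) and Bst2 (0.49 ± 0.07), which did not pass over all cells, rose here without overlap, with adjusted p of 0.00673 and 0.0037. Rsad2 alone did not pass (0.15, adjusted p = 0.765). In V3 resting Tconv 9 members fell and none rose, where 22.2% of genes rose and 19.2% fell. Ifit1 had 13.6 and 21.1 CPM in V3 ∆Foxp3 resting cells, against 54.6 and 76.8 CPM in V3 WT resting cells (-2.12 ± 0.32, adjusted p = 9.55e-06). Isg20 did not pass (-0.05 ± 0.25, adjusted p = 0.892), and without the cells that held 2 or more UMIs of other marker genes only Bst2 did (-0.61, adjusted p = 0.0406), with Ifit3 at 0.068. In resting cells of the chimeras no member passed (0 at an unadjusted p under 0.05, 0 by DESeq2), where 0.864% of genes rose and 0.412% fell.

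Activated Tconv, the class of effector, follicular helper, dividing and NKT-like clusters, gave another picture in V2. Of 8 members that passed the low-count filter, Isg20 rose and 4 fell, where 9.16% of genes rose and 6% fell. Ifit1 had 32.02 and 24.5 CPM in V2 ∆Foxp3 activated cells, against 60.3 and 66.4 CPM in V2 WT activated cells (-1.14 ± 0.18, adjusted p = 0.00249, edgeR). Usp18 had 5.06 and 5.51 CPM in ∆Foxp3, against 26.1 and 22.3 CPM in WT (-2.20 ± 0.31, adjusted p = 0.0012). Both genes were lower in each ∆Foxp3 sample, opposite to the resting class of the same samples. Rtp4 (-0.55 ± 0.14, adjusted p = 0.0233) and Bst2 (-0.60 ± 0.16, adjusted p = 0.0266) also fell. Isg20 had 51.8 and 50.8 CPM in ∆Foxp3, against 22.8 and 18.4 CPM in WT (1.30 ± 0.19, adjusted p = 0.00152). The values of Ifit3 (-0.60), Isg15 (-0.18) and Irf7 (0.09) did not pass, and Rsad2 and Oasl2 were below the filter. The 5 calls were 3 without WT replicate A, with DESeq2 and in thinned cells, those of Ifit1, Usp18 and Isg20 each time, and 0 without the cells that held other marker genes or an NKT annotation.

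In V3 activated Tconv 6 of 10 members fell and none rose, where 5.31% of genes rose and 4.7% fell. Ifit1 had 1.16 and 1.04 CPM in V3 ∆Foxp3 activated cells, from 4 and 5 UMIs, against 71.2 and 87.5 CPM in V3 WT activated cells, from 46 and 41 UMIs (-6.04 ± 0.57, adjusted p = 9.81e-06, edgeR). Isg15 had 16.5 and 15.6 CPM in ∆Foxp3, against 124 and 137 CPM in WT (-2.99 ± 0.43, adjusted p = 0.000379). Rtp4 had 13.03 and 14.7 CPM in ∆Foxp3, against 85.1 and 85.4 CPM in WT (-2.58 ± 0.39, adjusted p = 0.000644). These 3 genes did not overlap between the groups by a wide margin. Ifit3 (-5.04 ± 0.60, adjusted p = 7.08e-05) and Usp18 (-4.10 ± 0.66, adjusted p = 0.00107) fell too, from 8 and 9 UMIs in ∆Foxp3. Rsad2 was called from 3 UMIs in ∆Foxp3 and 7 in WT, a ratio of 0.0578 with a 95% counting interval of 0.00964 to 0.253. Irf7 (adjusted p = 0.0773), Oasl2 (0.0507), Bst2 (0.0707) and Isg20 (0.765) did not pass. With the tube as a block Irf7 (-1.21, adjusted p = 0.000677), Oasl2 (-3.97, adjusted p = 0.00773) and Bst2 (-1.15, adjusted p = 0.00212) were called lower as well. Without the block, only Ifit1 still passed once the cells that held 2 or more UMIs of other marker genes were left out. In activated cells of the chimeras no member passed (0 at an unadjusted p under 0.05, 0 by DESeq2), where 0.0572% of genes rose and 0.0801% fell; Ifit1 had 35.6, 38.6 and 86.3 CPM in ∆Foxp3 activated cells, against 36.1, 61.1 and 64.0 CPM in WT activated cells.

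Whether the genotype difference differed between the classes was tested in 1 fit over both classes, a test added after the opposite directions had been seen. In V2 the activated difference minus the resting difference was below 0 for 8 of 10 members and above 0 for none, where 2.61% of 9050 genes were above 0 and 4.59% below (edgeR). It was -2.88 ± 0.32 for Usp18 (adjusted p = 5.21e-06) and -2.31 ± 0.17 for Ifit1 (adjusted p = 6.81e-08), and it was smallest among the called members for Irf7 at -0.90. Isg20 (-0.20) and Rsad2 (-1.58) did not pass. In V3 it was below 0 for 4 members, where 2.64% of 10173 genes were above 0 and 5.89% below, from -1.41 for Isg15 to -3.95 for Ifit1. In the chimeras no member passed, where 0% of 9380 genes were above 0 and 0.0426% below. The fits had 2, 2 and 4 residual degrees of freedom among samples. The make-up of the activated class also differed: its largest clusters were Th1 (22.7%), tissue-like (22.3%) and Tfh cells (17.2%) in V2 ∆Foxp3 samples and NKT (28.9%), Th1 (23.7%) and tissue-like cells (17.9%) in V2 WT samples. In V3 they were activated_2 (38.1%) and dividing cells (24.0%) in ∆Foxp3 samples and Th1 (27.5%) and tissue-like cells (27.0%) in WT samples.

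Cells of the deposited Treg class were few, and in ∆Foxp3 mice they are Treg-like cells without Foxp3 protein. The make-up of the class also differed, and its part was not tested. The activated Treg cluster held 61.6% of it in V2 ∆Foxp3 samples and 20.2% in V2 WT samples. In V3 this cluster held 64.9% in ∆Foxp3 and 43.9% in WT samples. In V2, 4 of the 8 members tested rose and none fell, where 8.54% of genes rose and 7.79% fell. Isg20 had 101 and 82.3 CPM in V2 ∆Foxp3 Treg-class cells, against 37.8 and 34.95 CPM in V2 WT cells (1.30 ± 0.26, adjusted p = 0.00111, edgeR). Rtp4 (0.96 ± 0.23), Irf7 (0.95 ± 0.25) and Isg15 (0.75 ± 0.21) rose as well, also without overlap. Ifit1 was at 0.03 and Usp18 at -0.29. Without WT replicate B only Irf7 and Isg20 passed, and DESeq2 called none of the 4. In V3, 3 of 8 fell and none rose, where 3.6% of genes rose and 3.49% fell. Bst2 had 44.4 and 56.2 CPM in V3 ∆Foxp3 Treg-class cells, against 124 and 114 CPM in V3 WT cells (-1.30 ± 0.29, adjusted p = 0.00426). Isg15 fell by 1.55 ± 0.45 (adjusted p = 0.0301), and Usp18 was called from 3 UMIs in ∆Foxp3 and 10 in WT, a ratio of 0.112 (95% counting interval 0.0197 to 0.433). With ∆Foxp3 replicate 1, ∆Foxp3 replicate 2 or WT replicate 1 left out 1 of these 3 calls was left, and with the tube as a block 5 members were called lower. In the chimeras no member passed (0 at an unadjusted p under 0.05, 0 by DESeq2), where 0.179% of genes rose and 0.179% fell.

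Between sorted Treg and sorted Tconv of WT mice none of the 10 members passed the edgeR test (3 at an unadjusted p under 0.05), where 6.16% of genes rose and 6.01% fell. DESeq2 called 1, Isg20 (adjusted p = 0.0307). Isg20 had 57.2 and 81.5 CPM in sorted Treg, against 23.3 and 37.7 CPM in sorted Tconv, without overlap (1.01 ± 0.35, adjusted p = 0.071, edgeR). Irf7 had 51.2 and 51.6 CPM in Treg, against 58.9 and 84.8 CPM in Tconv (-0.68 ± 0.32, adjusted p = 0.2). Ifit1 had 78.3 and 78.1 CPM in Treg, against 55.3 and 81.7 CPM in Tconv, and its groups overlapped. With the tube as a block, Isg20 was called higher (0.97) and Irf7 (-0.67), Rsad2 (-1.65) and Oasl2 (-1.35) lower. No sorted Treg cell belonged to an Irf7 cluster, described next, so leaving out those clusters, which were defined with these genes, takes high cells from Tconv alone; as a description, Ifit1 then had 78.3 and 78.1 CPM in Treg and 17.1 and 27.8 CPM in Tconv.

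The deposited annotation holds Irf7 clusters, 1 of resting and 1 of activated Tconv, that take their name from a member. Since clustering used these genes, the following values are a description. The clusters held 8.13% of V2 cells and 32.6% of the members' UMIs, and in V3, without the sorted samples, 8.52% of cells and 41.2% of the members' UMIs. Rsad2 was the most concentrated, with 64.7% of its UMIs in them in V2 and 75.9% in V3, followed by Ifit3 with 54.7% and 73.2%. Bst2 was the most widely spread, with 21.0% in V2 and 25.3% in V3. Of the resting class, pooled over samples, 14.7% of V2 ∆Foxp3 cells and 8.15% of V2 WT cells fell in the resting Irf7 cluster. In V3 it was 11.8% of ∆Foxp3 and 10.6% of WT cells. By sample it was 14.8 and 14.4% in V2 ∆Foxp3, against 7.47 and 9.08% in V2 WT. The V3 ∆Foxp3 samples had 13.7 and 9.62%, against 10.6 and 10.7% in V3 WT, so that these groups overlapped.

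In the resting Irf7 cluster Ifit1 averaged 427 CPM in V2 (391.5 to 466 over 4 samples) and 345 CPM in V3 (75.0 to 557 over 11 samples). In the main resting cluster it averaged 52.8 CPM in V2 (22.8 to 86.0) and 18.5 CPM in V3 (5.33 to 35.7 over 12 samples). Within each kit the lowest level in the resting Irf7 cluster was above the highest in the main resting cluster. Dividing activated cells of V3 averaged 4.90 CPM of Ifit1 over the 3 samples counted, all of ∆Foxp3 cells, with a mean of 0.519 CPM in the 2 intact samples and 13.7 CPM in the 1 chimera sample. A cluster that the authors call Treg_furtive made up 20.8% of the sorted Treg cells. It had 171 and 312 CPM of Ifit1 and 171 and 560 CPM of Isg15 in the 2 samples that held it.

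**Figure D2:**
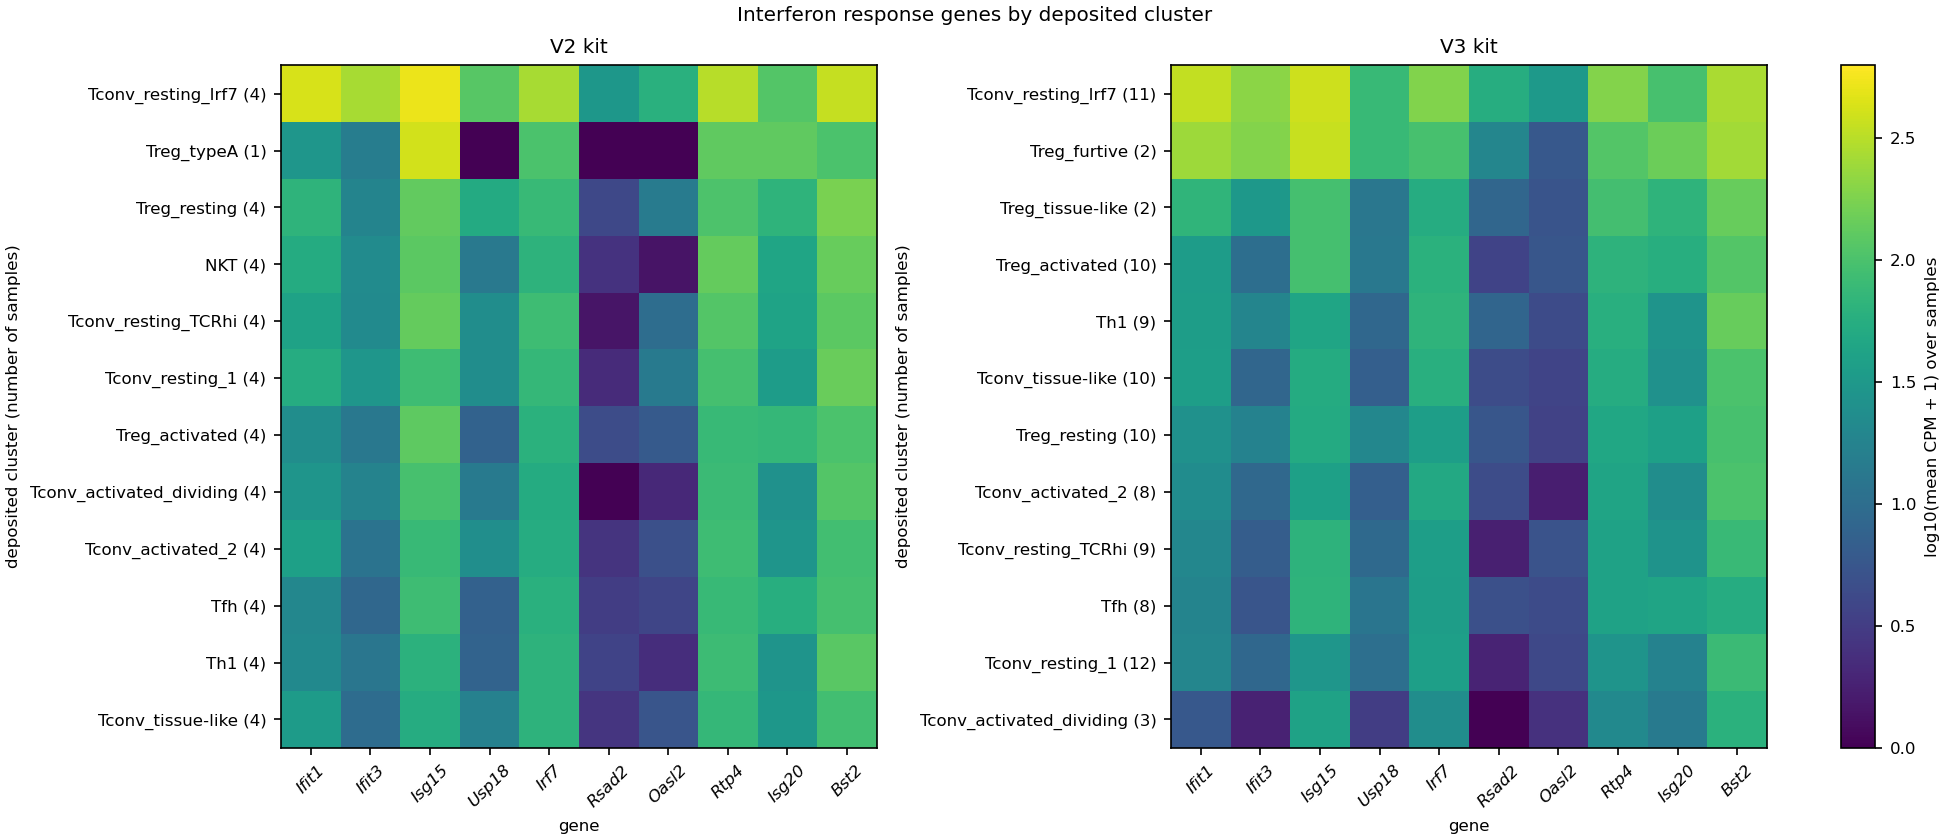
Mean level of each gene (x axis) in each deposited cluster (y axis, with the number of samples that held it), in V2 and V3, as colour on a log10(mean CPM + 1) scale. The resting Irf7 cluster is bright for every gene, with Ifit1 at 427 CPM in V2 and 345 CPM in V3, and the main resting cluster is darker, at 52.8 and 18.5 CPM.

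The levels inside and outside these clusters are given with no test. Outside them Ifit1 had 66.1 and 49.2 CPM in V2 ∆Foxp3 samples, against 30.7 and 27.3 CPM in V2 WT samples. In V3 it had 3.10 and 3.94 CPM in ∆Foxp3, against 28.3 and 21.9 CPM in WT. Neither kit showed overlap outside the clusters. Within the resting Irf7 cluster Ifit1 had 446 ± 27.8 CPM in V2 ∆Foxp3 and 408 ± 22.7 CPM in V2 WT samples (SD, n = 2 each). In V3 the same cluster had 75.0 and 203 CPM of Ifit1 in ∆Foxp3, against 322 and 557 CPM in WT. In the chimeras it had 335 ± 104 CPM in ∆Foxp3 and 431 ± 39.5 CPM in WT (SD, n = 3 each). At 1500 UMIs per cell, 66.0% ± 2.38 of V3 ∆Foxp3 cells of the Irf7 clusters and 80.8% ± 0.698 of V3 WT cells of those clusters held a member's UMI (SD, n = 2 each; 95.1% ± 3.52 and 95.8% ± 1.51 unthinned).

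Outside the 10 members, 128 other genes of the interferon pathway were counted by role, from lists chosen with earlier results known. Of the 17 ligand genes, 1 had any UMI in the data (Ifnz, 19 UMIs), and none could be tested. The receptor gene Ifnar1 had 73.0 and 76.4 CPM in V2 ∆Foxp3 samples, against 70.7 and 62.7 CPM in V2 WT samples, and 57.7 and 52.2 CPM in V3 ∆Foxp3, against 61.6 and 49.5 CPM in V3 WT. It overlapped between genotypes in V3 and was called in neither. Of 4 receptors, Ifngr1 rose in V2 (1.37); in V3 Ifngr1 rose (2.53) and Ifngr2 (-2.97) and Ifnar2 (-0.49) fell. Of 7 signalling genes, 4 rose in V2, with Stat2 at 0.97 and Stat3 at 0.62, and 1 fell. In V3, 1 signalling gene rose (Jak2, 0.61) and 3 fell, with Irf9 at -0.68 and Jak1 at -0.46. Of all genes tested, 14.4% rose and 9.61% fell in V2, and 22.1% rose and 20.9% fell in V3.

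Among other interferon-stimulated genes, more rose than fell in V2, where 14.4% of all genes rose and 9.61% fell, and more fell than rose in V3, where 22.1% rose and 20.9% fell. In V2 21 of 53 rose and 3 fell, with a median of 0.32; Ly6a rose by 2.17 and Xaf1, a partner of apoptosis inhibitors, by 1.09. In V3 5 of 55 rose and 31 fell, with a median of -0.48; Slfn5, of the Schlafen family, was at -2.27 and Pyhin1, of the PYHIN family, at -1.64. In resting Tconv 31 of 52 rose and 2 fell in V2, where 12% of all genes rose and 7.63% fell. In V3 resting Tconv 7 of 53 rose and 24 fell, where 22.2% of all genes rose and 19.2% fell. In activated Tconv 2 of 46 rose and 11 fell in V2, where 9.16% of all genes rose and 6% fell. In V3 activated Tconv none of 49 rose and 22 fell, where 5.31% of all genes rose and 4.7% fell. Of the 8 nucleic acid sensors, 2 rose in V2 (Zbp1, 1.65, and Ifih1, 0.79), and 3 fell in V3 (Ddx58, -0.70; Tlr7, -2.04; Dhx58, -1.15). Among 5 negative regulators Socs1 (2.06) and Socs3 (1.68) rose in V2 and Ptpn6 fell (-0.50), while in V3 Pias1 (-0.59) and Ptpn6 (-0.31) fell. Of 5 other interferon regulatory factors, Irf8 (3.05) and Irf1 (1.30) rose in V2, and Irf5 (2.11), Irf8 (1.02) and Irf1 (0.50) rose while Irf3 (-0.38) fell in V3.

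Genes of the IFN-γ response and its GTPases rose in V2 and were mostly not called in V3. In V2 all 22 that were tested rose, with a median of 1.74, where 14.4% of all genes rose and 9.61% fell. Gbp2, a guanylate-binding protein, rose by 3.07 and Iigp1, an immunity-related GTPase, by 3.60. In V3 5 of 22 rose and 1 fell over all cells, with a median of 0.15. There 22.1% of all genes rose and 20.9% fell, so that the share that rose was near that of all genes. Tap1, the peptide transporter, rose by 0.71. Within V3 resting Tconv 10 of 22 rose and none fell, with a median of 0.43, where 22.2% of genes rose and 19.2% fell. Within V3 activated Tconv none of 21 rose and 1 fell, where 5.31% of genes rose and 4.7% fell. Ifng itself had 42.9 and 96.5 CPM in V2 ∆Foxp3 samples, against 3.90 and 2.90 CPM in V2 WT samples, and 97.5 and 58.0 CPM in V3 ∆Foxp3, against 3.44 and 16.7 CPM in V3 WT. It was higher in every ∆Foxp3 sample of both kits. In all cells of the chimeras no gene of any role passed the test.

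**Figure D3:**
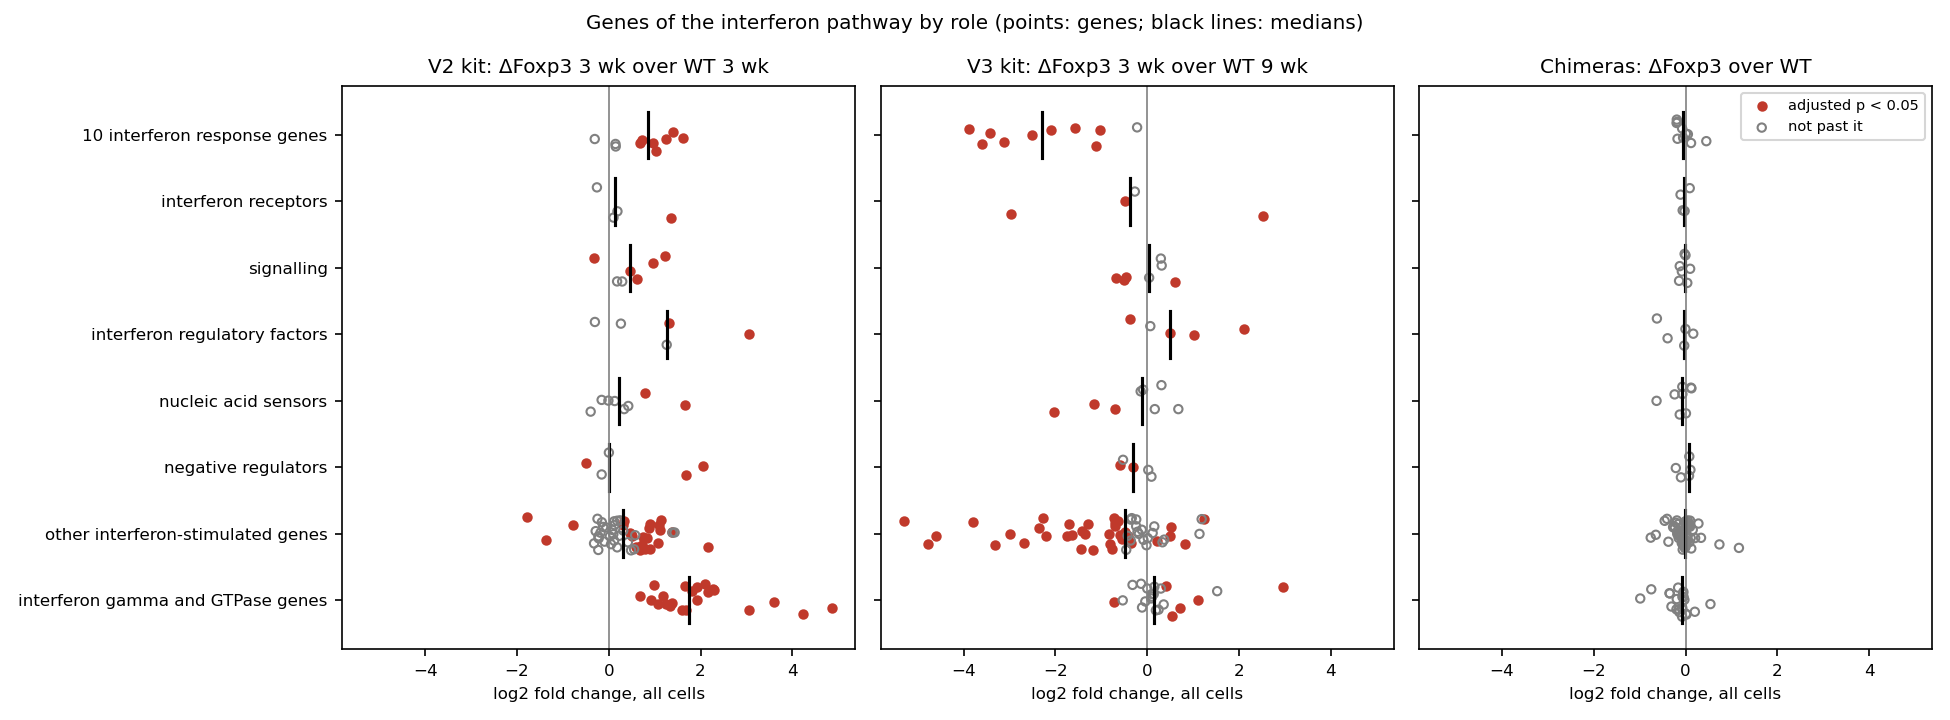
Log2 fold changes of ∆Foxp3 over WT in all cells (x axis) for the 10 members and the other pathway genes by role (y axis), in V2, V3 and the chimeras; points are genes, red with an adjusted p under 0.05, and black lines are medians. The medians of the members and of the IFN-γ and GTPase genes are 0.85 and 1.74 in V2, and -2.30 and 0.15 in V3.

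Over the 14 V3 samples the members varied together, as a description. The Pearson correlation of each member's log2 CPM with the mean of the other 9 was 0.977 for Rtp4, 0.976 for Isg15, 0.971 for Ifit3, 0.965 for Usp18 and 0.956 for Ifit1. It was 0.394 for Isg20, the lowest, and 0.801 for Rsad2. The genes outside the list with the most similar pattern, among 5065 genes with a mean of at least 20 CPM, were Gm4955 (0.956), Creg1 (0.946), Slfn8 (0.941), BC094916 (0.937) and Slfn5 (0.932). The next were Pydc4 (0.931), Sept6 (0.931), Trim30a (0.922), Ddx60 (0.917) and Gm14446 (0.915). These samples share groups, mice and tubes, and the 2 V3 ∆Foxp3 samples lie apart from the other 12, with a mean standardised level of -1.84 each, where the others lie between -0.48 and 1.04.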

How the data were processed

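Raw UMI counts per gene and cell were deposited by the authors as 1 matrix with a table of cell annotations; per the submitters' processing notes, Cell Ranger 3.0.2 and mm10 were used. The authors also deposited the percent of mitochondrial UMIs per cell, the doublet score per cell and, for V2, the fraction of reads in cells per library, with no steps stated. Samples, classes and clusters were taken from the deposited annotation, whose other 47 columns of values were not used. The members and gene lists were chosen with earlier results of these data known.

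UMIs were summed per sample, and per class where a sample held at least 20 such cells, and tested with edgeR 4.0.16 (quasi-likelihood F test, TMM, filterByExpr with a minimum count of 10, Benjamini-Hochberg over all genes tested, threshold 0.05), in R 4.3.3 with limma 3.58.1. The 4 V2 samples and the 14 V3 samples were fitted apart. DESeq2 1.42.0 was an alternative. The edgeR step was checked on simulated data. Levels are CPM of UMI sums; shares of cells are also given with each cell thinned to 1500 UMIs. Tables were made in Python 3.11.15 with numpy 2.4.6, pandas 2.3.3, scipy 1.17.1 and matplotlib 3.10.9. Intervals cover counting error only.

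Named genes are the members, up to 4 called genes with the lowest p per role, and the 10 genes most correlated with the members; Ifnar1 and Ifng were named after their values were seen. A gene of the pathway lists enters their counts, and its own values are not reported here. Chimera replicate numbers pair the samples because, per the labels, both genotypes of a number carry the same mouse's hashtag; the correlations of their deviations from the group means were 0.06, 0.05 and 0.02. Other V3 numbers mark the tube. No cell was called a doublet in the deposited scores (0 cells; highest score 0.293). The depth per sample is given in the results.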

Additional observations from a re-analysis of the deposited data

Results flagged for a closer look

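The genotype difference (∆Foxp3 minus WT, log2) of 9 members differed between intact V3 mice and mixed chimeras by a test of the difference itself (edgeR). Of all genes tested, 18.7% were called above 0 and 18.1% below. The intact minus the chimera difference was -3.06 for Ifit1, -2.33 for Ifit3, -1.89 for Isg15, -3.35 for Usp18, -1.07 for Irf7, -3.42 for Rsad2, -4.33 for Oasl2, -1.70 for Rtp4 and -1.12 for Bst2. Without the cells that held 2 or more UMIs of other marker genes or an NKT annotation, 1 member was still called.

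The genotype difference of 8 members differed between activated and resting Tconv in V2 by the class by genotype term (edgeR). Of all genes tested, 2.61% were called above 0 and 4.59% below. This test was added after the opposite directions had been seen. The activated minus the resting difference was -1.60 for Isg15, -2.82 for Oasl2, -2.88 for Usp18, -0.90 for Irf7, -1.06 for Bst2, -2.00 for Rtp4, -2.33 for Ifit3 and -2.31 for Ifit1. In V3 the same term was called for 4 members, where 2.64% of genes were above 0 and 5.89% below. Its values were -1.41 for Isg15, -1.50 for Rtp4, -3.55 for Ifit3 and -3.95 for Ifit1.

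For 8 members the CPM of every V2 ∆Foxp3 sample was above the V2 WT samples while that of every V3 ∆Foxp3 sample was below the V3 WT samples. The share of all genes with this pattern was not counted. For Bst2, V2 ∆Foxp3 replicate B and V2 WT replicate A had nearly the same CPM. The fit's scaling factors (1.03 and 0.991) reverse their order. The difference between the experiments was not tested, since the kits, the cells' depth and the age of the WT mice differ. The V2 and V3 genotype differences were 0.68 and -3.11 for Ifit1, 1.26 and -2.52 for Ifit3, 1.02 and -2.09 for Isg15 and 0.15 and -3.42 for Usp18. They were 0.74 and -1.02 for Irf7, 1.63 and -3.87 for Oasl2, 0.97 and -1.58 for Rtp4 and 0.15 and -1.11 for Bst2. Usp18 and Bst2 were called only in V3.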

How the results depend on the processing

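Over the 10 genes, comparisons and alternatives, 1670 values kept their sign and their side of the threshold, 170 that were called in neither fit changed sign, 82 were no longer past it and 36 were newly past it with the same sign. Another 3, called in 1 of the fits, changed sign: without the Irf7 clusters, a step that takes high cells from Tconv alone, Ifit1 was 1.65 and Ifit3 1.52 between sorted Treg and Tconv (-0.00 and -0.31 with them), and without the cells with other marker genes Ifit3 was 0.068 in V3 resting Tconv (-1.55 with them). That cell filter left 2 members called in V3 over all cells, 2 for chimera against intact ∆Foxp3 cells, 1 for intact minus chimera, 1 in V3 resting, 1 in V3 activated and 0 in V2 activated Tconv; the cause was not tested, and V3 Treg-class cells were too few for it. The same cell filter keeps a smaller share of cells in intact ∆Foxp3 than in intact WT samples of either kit. DESeq2 called 1 member between sorted Treg and Tconv, 3 in V2 activated Tconv and 0 in the V2 Treg class. No low-count filter gave 4 for sorted cells, 1 for chimera against intact WT cells and 5 in the V3 Treg class. Fitting only the sorted groups gave 2, and leaving out the Irf7 clusters 4, between sorted Treg and Tconv. Thinned cells gave 3 in V2 activated Tconv, 2 in the V2 and 1 in the V3 Treg class. The replicate block, paired by mouse in the chimeras and by tube in the other V3 samples, gave 4 for sorted cells and 5 in the V3 Treg class and moved no other count of calls by more than 1.5 times; in V3 activated Tconv it gave 9 in place of 6. For chimera against intact cells no block holds both groups, so the block values there, counted above, are no blocked comparison. V2 letters are not tied to anything in the labels (correlation of deviations 0.0771).

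With each replicate left out in turn, the number of called members was 4 to 8 in V2 and 8 to 9 in V3 over all cells, 9 to 9 for chimera against intact ∆Foxp3 cells and 8 to 9 for intact minus chimera. It was 7 to 9 in resting Tconv of either kit, 3 to 7 in V2 and 4 to 5 in V3 activated Tconv, 2 to 4 in the V2 and 1 to 3 in the V3 Treg class, and 7 to 8 in V2 and 4 to 4 in V3 for the activated minus resting difference. It was 0 to 0 in the 4 chimera comparisons of genotype by class and over all cells, in their class difference, between sorted cells and between chimera and intact WT cells. Oasl2 and Rsad2 rest on few UMIs in V3 ∆Foxp3 samples (13 and 12).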

Other observations

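In the resting class of V3 ∆Foxp3 mice, cells were set apart by a UMI of Nkg7, a cytotoxic granule gene, as a description added after the data were seen. Nkg7 was found in 56.7 and 62.9% of V3 ∆Foxp3 resting cells. In V2 it was found in 19.9 and 21.5% of ∆Foxp3 and 3.06 and 3.36% of WT resting cells. These shares are unthinned and cannot be compared between the kits, which differ in depth. The median over all cells was 6735 and 8856.5 UMIs in V3 ∆Foxp3 samples and 3143 and 2872 UMIs in V2 ∆Foxp3 samples. V3 ∆Foxp3 resting cells with Nkg7 had 7.70 and 10.9 CPM of Ifit1, and those without it had 23.5 and 45.2 CPM. For Isg15 the values were 16.4 and 21.1 CPM with Nkg7 and 39.7 and 59.4 CPM without it. Cells with Nkg7 were deeper, with medians of 7297.5 and 9324 UMIs, against 5280.5 and 6524.5 UMIs in cells without it. Isg20 had 24.5 and 31.7 CPM with Nkg7 and 25.1 and 36.0 CPM without it, and the other 7 members had lower levels with it in both samples. The resting Irf7 cluster held 10.7 and 6.72% of the cells with Nkg7 and 17.5 and 14.6% of those without it. V3 WT resting cells without Nkg7, 97.7 and 97.2% of their class, had 50.2 and 61.3 CPM of Ifit1.

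In sorted WT Treg against sorted WT Tconv, 7 of the 22 tested genes of the IFN-γ and GTPase list rose and none fell, and of 55 other interferon-stimulated genes 5 rose and 5 fell, where 6.16% of all genes tested rose and 6.01% fell. Ifngr1 (1.31), Socs1 (1.11) and Ifnar1 (0.50) were higher in sorted Treg than in sorted Tconv (edgeR, adjusted p under 0.05).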
